A study of Mus musculus with 7 samples.

Results

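Coding exons carry the codons of a protein, and in stem and progenitor cells most of the accessible chromatin around them lies outside, at promoters, in introns and between genes. The sites described here are the exceptions: places where the summit of an ATAC-Seq peak fell on a coding base, away from the starts of protein-coding transcripts. A site was kept when a peak of at least 1 library had its summit in the coding part of a protein-coding exon (GENCODE vM21, mm10), on an autosome and more than 2000 bp from every protein-coding transcript start, and summits within 150 bp of each other were joined over the libraries. This gave 4643 coding exon sites of 248130 autosomal sites, in 3208 genes. They made up 1.87% of all sites, on sequence that makes up 1.05% of autosomal bases. Whether a summit fell in a coding exon was the whole of the rule, and heights, widths and group differences were not used in it. A site with summits in more libraries had more chances to be kept.

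ATAC-Seq uses a transposase that cuts and tags open DNA, and a peak marks where cuts pile up. LSK cells (Lin-, Sca-1+, Kit+) are the bone marrow fraction in which stem cells and multipotent progenitors are found. Libraries were made from 50000 sorted LSK cells of wild-type C57/BL6 offspring aged 8 to 12 weeks. The 3 Ctrl libraries came from offspring of a normal pregnancy, and the 4 WTAkita libraries from wild-type offspring of diabetic dams heterozygous for the Ins2Akita allele, a misfolding insulin mutation. The dams of both groups are described as fed a high-fat diet before breeding. The number of mice behind a library is not stated, and p-values therefore reflect only how far libraries vary. Fold enrichment is the authors' summit pileup divided by that library's local background, and a peak's width is the length of its interval.

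All 12 LSK marker genes, among them Kit, Ly6a, Cd34, Flt3, Slamf1 and Meis1, had a summit within 1000 bp of their start in all 7 libraries. Of 23 markers of other cells, Ms4a1, Cd3e, Cd8a and Ncr1 had one in 0 libraries, and 15 had one in all 7, among them genes of T cells and endothelium: Cd3d, Cd4 and Cdh5. Estimated depth was 37600000 to 53100000 tags, with 176618 to 191077 autosomal summits per library. The median fold enrichment over all autosomal summits was 4.68 in WTAkita replicate 1, 5.03 in WTAkita replicate 2 and 5.11 in Ctrl replicate 1, and 5.45 to 5.66 in the other libraries. These 3 libraries were the lowest in every class of site. How far other cells enter the results was not tested.

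Reference sequences of 10 coding exon sites are given as examples. Those of the first and second sets were picked for the motif letters they carry and are not typical in this. All are mm10 bases within 60 bp of the summit, clipped to the coding exon and written 5′ to 3′ on the strand of the gene. The first set is taken from tall sites, 3 of the 12 strongest and the one in Pdia4, that carry letters of known binding motifs, given in capitals. Nckap1l (chr15:103462680-103462762, + strand) holds the PU.1 letters GAGGAAGT on the opposite strand, Chd9 (chr8:90976976-90977067, +) the E-box letters CAGCTG, Kansl1 (chr11:104425112-104425210, −) the RUNX letters TGTGGT on the opposite strand, in a stretch that opens with its start codon, and Pdia4 (chr6:47799186-47799264, −) letters of the CTCF motif on the opposite strand.
Nckap1l: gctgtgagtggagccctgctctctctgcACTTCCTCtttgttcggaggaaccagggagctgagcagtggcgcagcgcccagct
Chd9: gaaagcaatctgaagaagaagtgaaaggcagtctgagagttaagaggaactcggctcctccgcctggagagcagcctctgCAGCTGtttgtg
Kansl1: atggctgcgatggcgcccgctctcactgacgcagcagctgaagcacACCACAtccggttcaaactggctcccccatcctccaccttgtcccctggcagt
Pdia4: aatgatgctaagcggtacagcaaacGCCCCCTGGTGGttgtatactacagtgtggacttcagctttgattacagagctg

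The second set comes from genes of blood cell identity, and the capitals again mark the named motif. Lmo2 (chr2:103976005-103976109, +) holds the RUNX letters, Bach2 (chr4:32579957-32580077, +) the PU.1 letters, Il6ra (chr3:89890283-89890403, −) the RUNX letters on the opposite strand and Etv6 (chr6:134248328-134248448, +) the same letters at 2 places.
Lmo2: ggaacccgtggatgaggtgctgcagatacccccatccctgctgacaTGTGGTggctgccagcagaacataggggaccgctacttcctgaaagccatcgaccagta
Bach2: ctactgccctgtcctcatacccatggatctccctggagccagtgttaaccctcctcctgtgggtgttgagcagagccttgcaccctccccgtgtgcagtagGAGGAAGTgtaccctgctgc
Il6ra: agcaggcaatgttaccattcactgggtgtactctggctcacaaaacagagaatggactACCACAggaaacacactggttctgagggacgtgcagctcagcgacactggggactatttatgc
Etv6: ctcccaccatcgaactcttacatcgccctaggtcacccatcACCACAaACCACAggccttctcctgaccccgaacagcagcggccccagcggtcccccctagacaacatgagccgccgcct

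In the third set the capitals mark the 11 bases centred on the summit and no motif: Ncam2 (chr16:81437596-81437696, +), the strongest coding exon site of all, and Spi1 (chr2:91115130-91115250, +), in the last coding exon of the gene for PU.1.
Ncam2: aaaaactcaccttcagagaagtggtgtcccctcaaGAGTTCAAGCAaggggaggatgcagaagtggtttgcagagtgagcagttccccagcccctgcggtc
Spi1: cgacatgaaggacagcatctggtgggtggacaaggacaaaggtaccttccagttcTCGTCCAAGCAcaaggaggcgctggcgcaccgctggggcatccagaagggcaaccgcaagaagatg

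Just over 1 site in 2 was seen in every library. Of the 4643 sites, 2550 (54.9%) had a summit in all 7 libraries and 666 (14.3%) in 1 library. Among intronic sites these shares were 50.1% and 17.9%, and the share called in all 7 was 50.8% for intergenic, 51.4% for UTR and 62.1% for promoter sites. A coding exon site needed only 1 coding summit, which gave sites of many libraries more chances to count. Where at least 50% of summits had to be coding, the share of coding exon sites called in all 7 was 52.8%. The summit did not always stay in the exon: 1713 sites (36.9%) had a coding exon summit in all 7 libraries, while 837 were called in all 7 with the summit outside the coding exon in at least 1. In 3195 sites every summit was coding. Sites seen more often were also taller and wider. The median fold enrichment was 2.59 at sites of 1 library, 3.37 at sites of 6 and 6.31 at sites of 7, and the median width was 304, 368 and 553 bp. At the median, an estimated 14 tags piled up at the summit of a site of 1 library and 53 at a site of all 7.

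**Figure D1:**
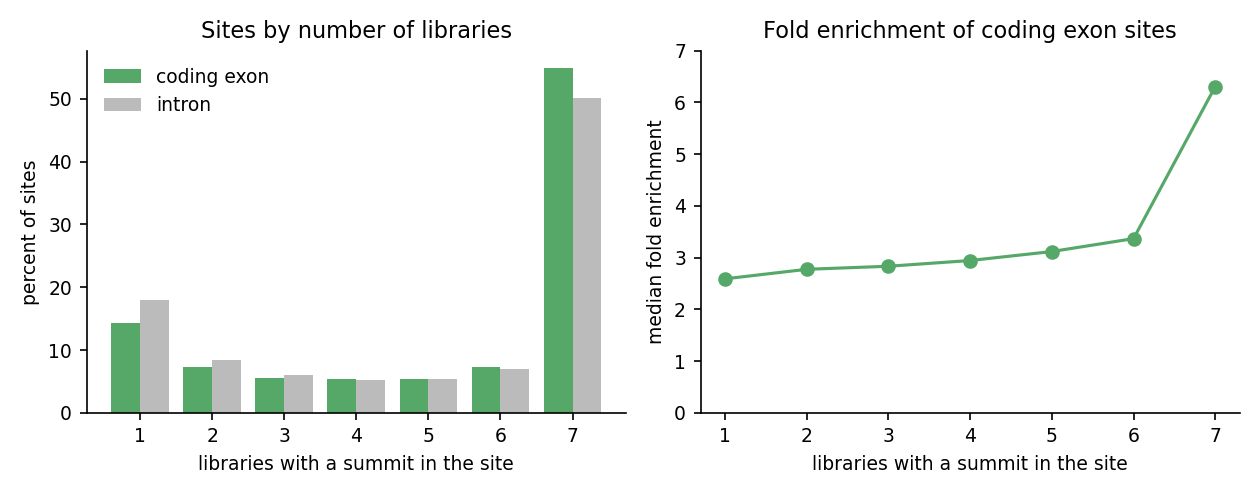
Left, the percent of coding exon sites (green) and intronic sites (grey) by the number of libraries with a summit in the site. Right, the median fold enrichment of coding exon sites by that number, from 2.59 at 1 library to 6.31 at 7, with most of the step between 6 and 7 libraries.

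A coding exon peak was rarely a coding-only event. The median peak was 45.6% coding, 61.0% of the peaks at the strongest coding summit covered the whole exon, and 12.2% lay inside it. The median exon was 191 bp long and the summit stood a median of 46 bp from the nearer exon edge. The nearest protein-coding start was a median of 10593 bp away. A start of a noncoding transcript lay within 500 bp of 14.6% of the sites. Along the coding sequence the summit lay at a median of 61.0% of its length, with quartiles of 37.0% and 82.7%.

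Sites were not spread evenly over exons. In 152590 coding exons of 1 main transcript per gene, 4026 (2.64%) held a site. Longer exons held one more often, from 1.15% of exons of up to 100 bp to 16.5% of exons over 1000 bp, but per Mb (megabase) the range was narrow, from 157 at 100 to 150 bp to 219 at 500 to 1000 bp. The last coding exon had 252 sites per Mb, single coding exons 232, first coding exons 213 and internal exons 158. Among sites called in all 7 libraries, those in last coding exons had a median width of 671 bp against 515 bp in internal ones. Over all sites, called in any number of libraries, the median GC content was 61.2% in last coding exons against 56.2% in internal ones. GC content separated exons far more than length did: exons with up to 45% GC had 37.1 sites per Mb and exons with over 65% GC had 1304.

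Coding exons were denser in accessible sites than introns, and at equal GC content they were sparser. Over the whole class, each library had 113 ± 1.6 (SD, n = 7) summits per Mb of coding bases and 75.3 ± 2.9 per Mb of intronic bases, a difference of 37.4 ± 3.4 that was above 0 in 7 of 7 libraries (exact sign-flip test over libraries, two-sided, p = 0.0156, the smallest it can give). In sequence of 50 to 60% GC, counted over each base and the 100 bases on either side, the order turned: 118 ± 3.1 per Mb in coding exons and 199.8 ± 3.8 per Mb in introns, a difference of −82.0 ± 3.4 that was below 0 in 7 of 7 libraries (exact sign-flip test, p = 0.0156). Coding exons were the sparser class in 6 of 7 GC ranges, with 9.83 against 14.97 summits per Mb at up to 40% GC and 141 against 286 at 55 to 60%. Above 65% GC they were the denser, with 1044 ± 20.9 against 676 ± 40.8 (exact sign-flip test, adjusted over the 7 GC ranges, p = 0.0156 in each). Sequence of up to 40% GC makes up 14.1% of the coding bases and 37.6% of the intronic ones. The density was not corrected for how much of each class can be mapped. The comparison by GC content was chosen after the values were seen.

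**Figure D2:**
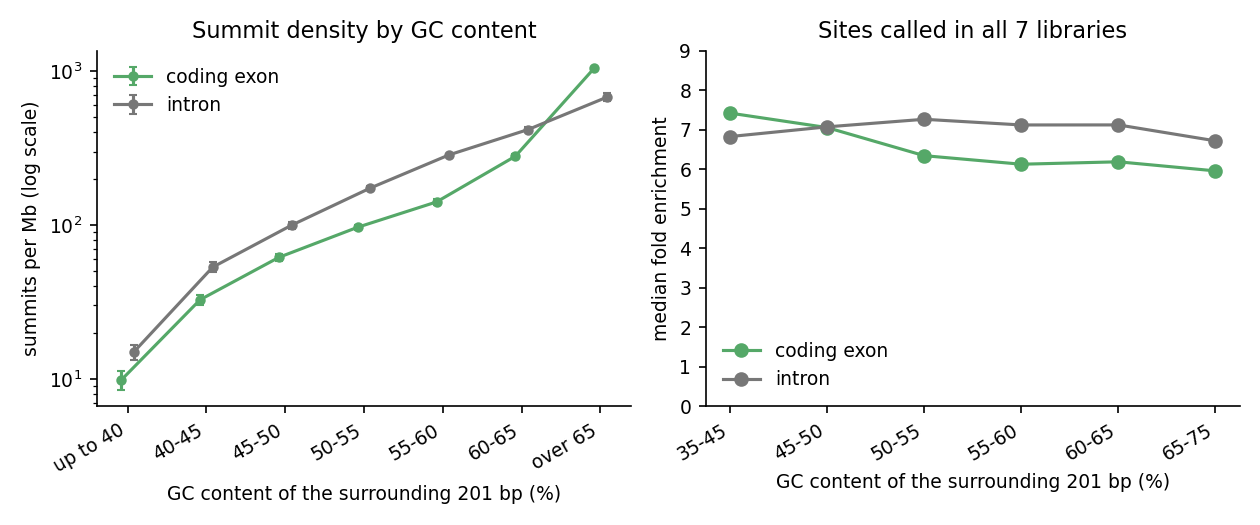
Left, summits per Mb in coding exons (green) and introns (grey) by GC content of the surrounding window, as the mean over 7 libraries with SD, on a log scale; coding exons lie below introns in every range up to 65% and above them over 65%. Right, the median fold enrichment of sites called in all 7 libraries by GC content; coding exon sites lie below intronic sites in every range above 50%.

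In height, the medians of coding exon and intronic peaks were close. The median fold enrichment per library was 5.12 ± 0.45 (SD, n = 7) in coding exons and 5.19 ± 0.37 in introns. On the log2 scale the difference was −0.02 ± 0.03 (exact sign-flip test, p = 0.125, adjusted 0.125). It was below 0 in 4 libraries and exactly 0 in the other 3, so the test could give no smaller p. Its direction depended on the distance set from start sites, since with a distance of 5000 bp it was 0.05 (exact sign-flip test, p = 0.0312) and with 1000 bp −0.07 (exact sign-flip test, p = 0.0156). It was −0.04 with the 5′ ends of genes as the only starts and −0.04 with peaks of −log10 p of at least 5 (exact sign-flip tests, p = 0.0156 in both). Intergenic, UTR and promoter peaks were taller than coding exon peaks, by 0.07, 0.04 and 0.08 on the log2 scale, in 7 of 7 libraries (exact sign-flip tests, adjusted p = 0.0208 in each). Among sites called in all 7 libraries the gap to introns was larger. There, coding exon sites had a median log2 fold enrichment of 2.68 ± 0.16 and intronic sites 2.84 ± 0.17, a difference of −0.16 ± 0.02 in 7 of 7 libraries (exact sign-flip test, p = 0.0156). At 50 to 60% GC this difference was −0.21 ± 0.02, again in 7 of 7 (exact sign-flip test, p = 0.0156). Over all summits at that GC content it was −0.05 ± 0.04 and below 0 in 6 of 7 libraries (exact sign-flip test, p = 0.0312). With summits joined within 300 bp the difference at sites called in all 7 was −0.02 (exact sign-flip test, p = 0.0625), and more than 5000 bp from starts the one over all summits at 50 to 60% GC was 0.00145 (exact sign-flip test, p = 0.906). Where at least 50% of a site's summits had to be coding, the difference at sites called in all 7 shrank to −0.07. At 50 to 60% GC it was then −0.09 (exact sign-flip tests, p = 0.0156 in both).

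Coding exon peaks were wider than intronic peaks. The median width was 521 ± 13.4 bp against 435 ± 6.6 bp, a difference of 86.1 ± 8.7 bp in 7 of 7 libraries (exact sign-flip test, adjusted p = 0.0156). They were also wider than intergenic peaks by 73.5 ± 8.4 bp and than UTR peaks by 76.4 ± 8.9 bp, and narrower than promoter peaks by a margin of −443 ± 10.7 bp, each in 7 of 7 libraries (exact sign-flip tests, adjusted p = 0.0156). A peak with several summits counts once for each of them here. Of coding exon summits, 38.3% ± 1.8 (SD, n = 7) shared their peak with another summit, against 27.7% ± 0.89 of intronic ones. With each peak counted once the difference in width was 76.6 ± 8.4 bp. GC content moved with width as well, with a median of 57.2% at coding exon sites and 49.3% at intronic sites. At 50 to 60% GC the sign turned, and coding exon peaks were narrower by a margin of −20.1 ± 5.8 bp in 7 of 7 libraries (exact sign-flip test, p = 0.0156). At 65 to 75% GC, sites called in all 7 libraries had a median width of 770 bp in coding exons and 722 bp in introns. Around the threshold of the rule, summits 1500 to 2000 bp from a start, which were left out, had a median fold enrichment of 4.14 ± 0.45 and a width of 572 ± 32.8 bp, and those at 2000 to 2500 bp, which were kept, 4.06 ± 0.32 and 611 ± 16.1 bp (SD, n = 7).

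**Figure D3:**
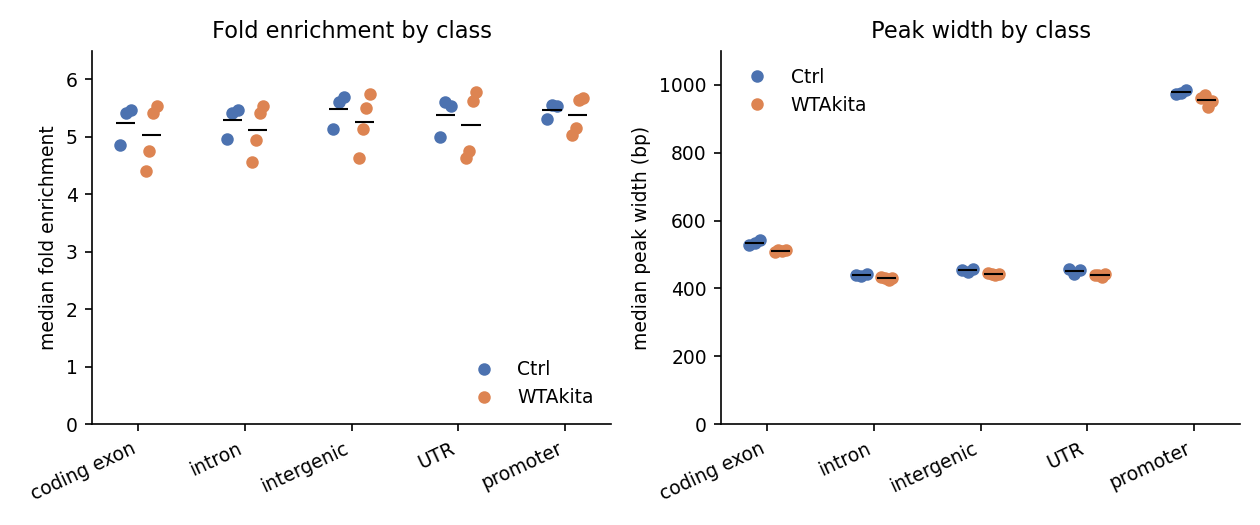
Median fold enrichment (left) and median peak width in bp (right) of summits in each class, 1 point per library, with Ctrl in blue, WTAkita in orange and black lines at the group means. Fold enrichment of coding exon peaks overlaps that of the other classes, and their width of 508 to 543 bp lies above introns, intergenic sequence and UTRs and below promoters.

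Letters of known motifs were searched on both strands within 100 bases of each site's strongest summit of its own class. For coding exon sites this is the strongest coding summit, which need not be the strongest of the site. A match is a description and not a binding site. CTCF, which holds chromatin loops in place, was searched by its core letters (CCA, 2 free bases, AG, 2 free bases and GGC). They occurred at 6.48% of coding exon sites and 8.63% of intronic sites, and at 17.3% of the 255 strongest coding exon sites called in all 7 libraries against 15.7% of the 4452 strongest intronic ones. RUNX letters (TGTGGT) occurred at 19.4% of coding exon sites and 26.0% of intronic ones, GATA letters (AGATAA) at 4.59% and 8.70%, AP-1 letters (TGANTCA) at 4.80% and 8.43%, and PU.1 letters (GAGGAAGT) at 6.70% and 7.72%, each lower in coding exons. E-box letters (CAGCTG) occurred at 21.0% of coding exon sites and 14.1% of intronic ones and ETS letters (CCGGAAGT) at 0.883% and 0.370%, both higher in coding exons. The shares were not adjusted for base composition, which differs between the classes.

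Genes differed in how many sites they held. Of the 3208 genes, 2316 held 1 site, 559 held 2 and 18 held 6 or more. Zan, which encodes a sperm protein that binds the egg coat, and Speg, a muscle kinase, held 11 each, followed by Ryr1, the calcium release channel of skeletal muscle, with 10, Sptbn4, a spectrin, with 9, and Fam83h with 9. Per kb of coding bases more than 2000 bp from a start their numbers ran from 0.66 in Ryr1 to 2.48 in Fam83h. Being full of sites was not the same as being reproducibly open: 7 of the sites of Zan were called in all 7 libraries, but 3 of those of Fam83h. Eppk1, a plakin gene with 8 sites that is named here after its values were seen, had 0 in all 7.

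By gene group, density per Mb of coding bases was 179 over all protein-coding genes, where 2550 of the 4643 sites were called in all 7 libraries. The densities count sites called in any number of libraries. The densities of the groups were not adjusted for GC content, which separated exons strongly. Hematopoietic transcription factors had 334 (29 sites, 11 of these sites called in all 7, in 22 of 57 genes with such sequence). Hematopoietic receptors and surface proteins had 268 (24 sites, 11 called in all 7, in 15 genes). Chromatin regulators had 180 (44 sites, 10 called in all 7, in 24 genes). Collagens and other matrix genes had 171 (34 sites, 19 called in all 7) and solute carriers (Slc) 162 (78 sites, 38 called in all 7). Keratins (Krt), the filament proteins of epithelia, had 343, with 16 sites, 12 called in all 7, in 14 genes. Cytoskeletal and large structural proteins had 82.1, zinc finger genes (Zfp) 76.2 and olfactory receptors (Olfr) 80.6. Vomeronasal receptors (Vmn) had 0 sites in 0.287 Mb. Protocadherins (Pcdh) had 228 and the Hox genes 981, the latter from 5 sites in 0.0051 Mb. The height of the sites called in all 7 libraries did not follow this order: against a median fold enrichment of 6.31 for all coding exon sites it was 4.49 in hematopoietic transcription factors, 5.91 in hematopoietic receptors, 8.18 in chromatin regulators, 8.09 in cytoskeletal proteins and 9.73 in keratins.

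The strongest coding exon sites were close in height to one another and in all 7 libraries. In the fourth coding exon of Ncam2, a neural cell adhesion gene, the Ctrl libraries had fold enrichments of 34.3, 35.6 and 35.9 and the WTAkita libraries of 31.96, 32.5, 35.9 and 37.1 (peak chr16:81437383-81437938). The groups overlapped, and the lowest values were in WTAkita replicates 1 and 2. The fifteenth coding exon of Col23a1, a collagen, reached a geometric mean of 32 although its exon takes up 7.33% of the peak. Chd9, a chromodomain helicase, followed with 31.4, Kansl1, a subunit of a histone acetyltransferase complex, with 30.4, Pop1, an RNase P subunit, with 30.3, and Nckap1l, a blood cell subunit of the actin-nucleating WAVE complex, with 30.1. The E3 ubiquitin ligase Ubr4 (29.7), the adhesion gene Dscam (29.6), the cytochrome P450 gene Cyp4f13 (29.5), the myosin gene Myh7b (29.2), Rnf19a (28.8) and the autophagy gene Epg5 (28.3) made up the rest of the 12. In Cyp4f13 the summit was coding in 3 of the 7 libraries. Differences between the groups at these 12 sites lay between −0.04 and 0.08 on the log2 scale.

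The widest sites were of another kind. Sema6c, a semaphorin, had peaks of 2223 bp on average in 2 libraries with a fold enrichment of 2.29, Tchh, a hair follicle protein, 1900 bp in 2 Ctrl libraries with 2.57, and Zfp316, a zinc finger gene, 1857 bp in all 7 with 3.51. All 3 were low.

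**Figure D4:**
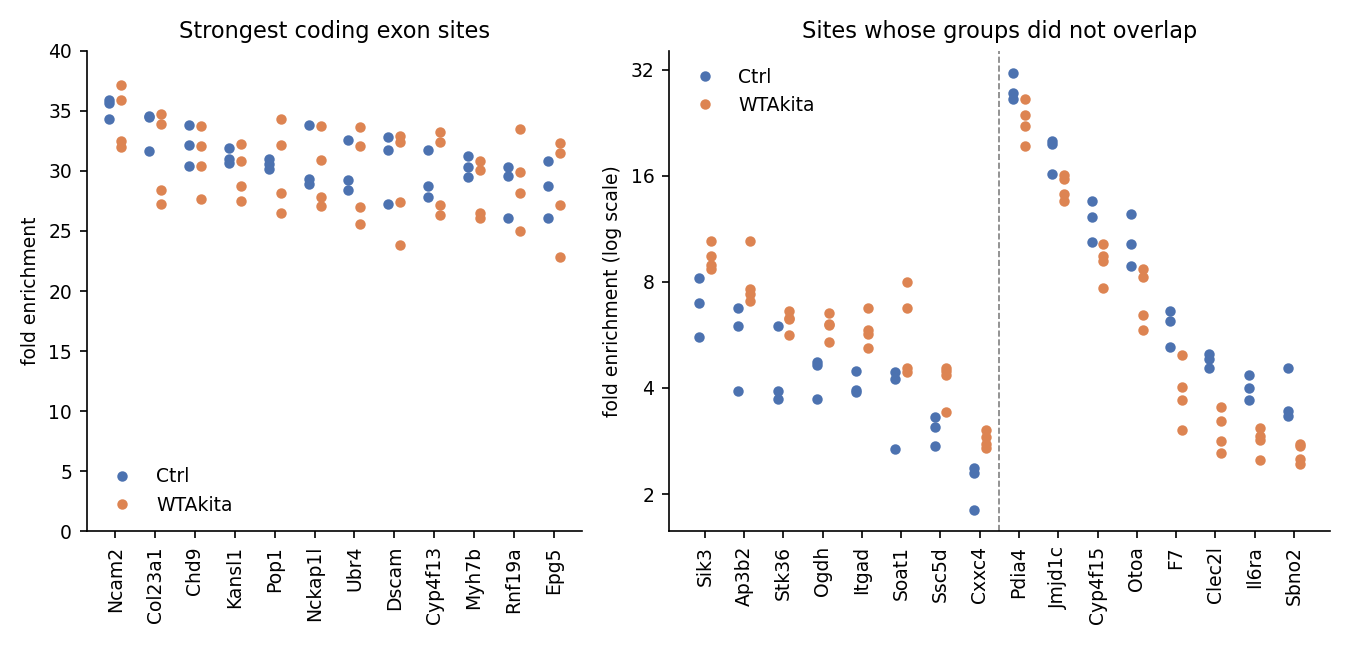
Deposited fold enrichment in each library (Ctrl blue, WTAkita orange). Left, the 12 strongest coding exon sites, where the groups overlap. Right, on a log scale, the 8 sites with the largest statistic in each direction among those whose groups do not overlap after quantile normalization, higher in WTAkita left of the dashed line and lower to its right; before normalization the groups of Stk36, Soat1 and Pdia4 overlap.

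Several regulators of blood cell fate had a coding exon site in all 7 libraries. In Spi1, which encodes PU.1, the site in the last coding exon had a fold enrichment of 7.47, 12.5 and 11.5 in Ctrl and 6.69, 6.61, 11.4 and 12.9 in WTAkita. It was lowest in the same 3 libraries that were low as a whole. A second Spi1 site, in the third coding exon, was lower and steadier, with 4.16, 4.16 and 4.05 in Ctrl and 3.68, 4.15, 4.13 and 3.38 in WTAkita, and its summit was coding in 3 libraries. Spib, the closest relative of Spi1, had a site of 15.1 in its last coding exon.

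Tal1 and Lmo2 encode partners in a complex that drives blood cell formation. The Tal1 site lay in its first coding exon at 74.6% GC and was 1115 bp wide on average, with 8.95, 7.55 and 9.21 in Ctrl and 8.71, 7.97, 9.86 and 8.62 in WTAkita. The Lmo2 site had 6.31, 5.34 and 6.75 in Ctrl and 5.78, 5.89, 7.77 and 6.68 in WTAkita. At both, the groups overlapped. Bach2, a transcriptional repressor of lymphocytes, had a site of 15.9 in the third coding exon and one of 3.49 in the fourth, and Etv6 (3.17) and Mycn (3.88) had lower ones.

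Myb, a factor of progenitor growth, had a pair of sites in neighbouring exons. In coding exon 9 the values were 2.90, 4.26 and 4.23 in Ctrl and 4.44, 4.56, 4.95 and 6.10 in WTAkita, so that the groups did not overlap, with a difference of 0.47 ± 0.16 (SE) on the log2 scale (limma, adjusted p = 1.00). In coding exon 10 they were 5.17, 6.19 and 3.73 in Ctrl and 5.24, 3.04, 3.53 and 5.44 in WTAkita, and the groups overlapped.

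Among receptors, the tallest site was in coding exon 24 of Notch3, with 26.0, 31.2 and 31.2 in Ctrl and 23.3, 24.7, 29.5 and 30.6 in WTAkita. The last exon of Notch3 held sites of 11.3 and 3.20 whose peaks overlap. Il4ra, a receptor chain for interleukin-4, had 18.2 in its last coding exon. Notch4 had a site of 9.30 in its last exon in all 7 libraries and lower ones in 5 libraries (2.06) and in 1 (2.38). Kit, the stem cell factor receptor that defines LSK cells, had sites at coding exons 2 and 11, but the summit lay in the exon in 1 and 4 libraries. At exon 2 the values were 6.0, 7.55 and 7.22 in Ctrl and 4.16, 5.13, 5.18 and 6.97 in WTAkita, and at exon 11 they were 7.06, 9.05 and 8.28 in Ctrl and 6.68, 9.47, 10.2 and 8.88 in WTAkita. At both exons these values overlapped between the groups. After quantile normalization the groups at exon 2 no longer overlapped, with a difference of −0.33 ± 0.15 (SE) on the log2 scale (limma, adjusted p = 1.00). Flt3 (3.04) and Il3ra (2.95) had a coding summit in 1 library each. Notch2 had 5.37, and Mki67, the proliferation marker, 3.17.

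The study asked whether the chromatin of LSK cells differs in offspring of diabetic pregnancy. Coding exons gave 3475, 3441 and 3389 sites in the Ctrl libraries and 3447, 3448, 3546 and 3471 in the WTAkita libraries. Ctrl averaged 3435 ± 43.3 (SD, n = 3) and WTAkita 3478 ± 46.7 (SD, n = 4), so the groups differed by less than their libraries did (two-sided p = 0.286 by exact permutation test, adjusted 0.457). The difference of 43 ran from 21 without WTAkita replicate 3 to 63.2 without Ctrl replicate 1. The smallest p this design allows is 0.0571. Ctrl libraries had a median fold enrichment of coding exon peaks of 4.85, 5.42 and 5.48, and WTAkita libraries one of 4.40, 4.75, 5.42 and 5.54, and on the log2 scale the difference was −0.07 (exact permutation test, p = 0.457, adjusted 0.457). It ran from −0.12 without Ctrl replicate 1 to −0.01 without WTAkita replicate 1. Relative to intronic peaks of the same library it was −0.02 (exact permutation test, p = 0.4).

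Of the 4 measures tested together, width was the one in which the groups stood apart. The median width of coding exon peaks was 528, 532.5 and 543 bp in Ctrl and 508, 513, 511 and 512 bp in WTAkita. The means of 534.5 ± 7.7 (SD, n = 3) and 511 ± 2.2 (SD, n = 4) differed by −23.5 bp, with every WTAkita library below every Ctrl library (exact permutation test, p = 0.0571, the smallest possible, adjusted 0.229). Intronic peaks were also narrower in every WTAkita library, with means of 441 and 430.5 bp (exact permutation test, p = 0.0571). The difference between the classes stood apart as well, at 93.5 and 80.5 bp. With peaks of −log10 p of at least 5 the difference in coding exons was −12.8 bp and the groups were no longer apart (exact permutation test, p = 0.286), and with each peak interval counted once it was −15.6 bp. It was −26.2 bp when Ctrl replicate 1 and WTAkita replicates 1 and 2 were left out.

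Site by site, 2550 coding exon sites called in all 7 libraries could be compared on quantile-normalized log2 fold enrichment. None had an adjusted p under 0.05 in either direction, as in all 132276 autosomal sites, where 0% were called (limma, smallest adjusted p = 1.00). At an unadjusted p under 0.05, 56 sites (2.20%) were higher in WTAkita and 69 (2.71%) lower, against a background of 1.8% and 2.08%, together 125 (4.90%) against 3.88%. The groups did not overlap at 65 sites (2.55%) that were higher in WTAkita, against a background of 2.48%, and at 64 (2.51%) that were lower, against 2.25%, which gives 129 (5.06%) against 4.73%. The shares at an unadjusted p under 0.05 lay above those of all sites, by a margin that was not tested. The shares of sites whose groups did not overlap were close to those of all sites. The median difference over the 2550 sites was −0.00 on the log2 scale, with a median standard error of 0.15.

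Within the gene groups, 0 sites passed in any list. Of the 11 tested sites of hematopoietic transcription factors, 6 were above 0 and 5 below with a median of 0.01, and of the 11 of hematopoietic receptors 4 were above and 7 below with a median of −0.03. Among the other lists with at least 10 tested sites, chromatin regulators had 3 above and 7 below with a median of −0.05, collagens (Col) 4 and 12 with −0.09, solute carriers 13 and 25 with −0.05, cytoskeletal proteins 6 and 11 with −0.02, collagens with other matrix genes 9 and 10 with −0.02, zinc finger genes 13 and 10 with 0.06 and keratins 9 and 3 with 0.09. Over all coding exon sites 1268 were above 0 and 1282 below.

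**Figure D5:**
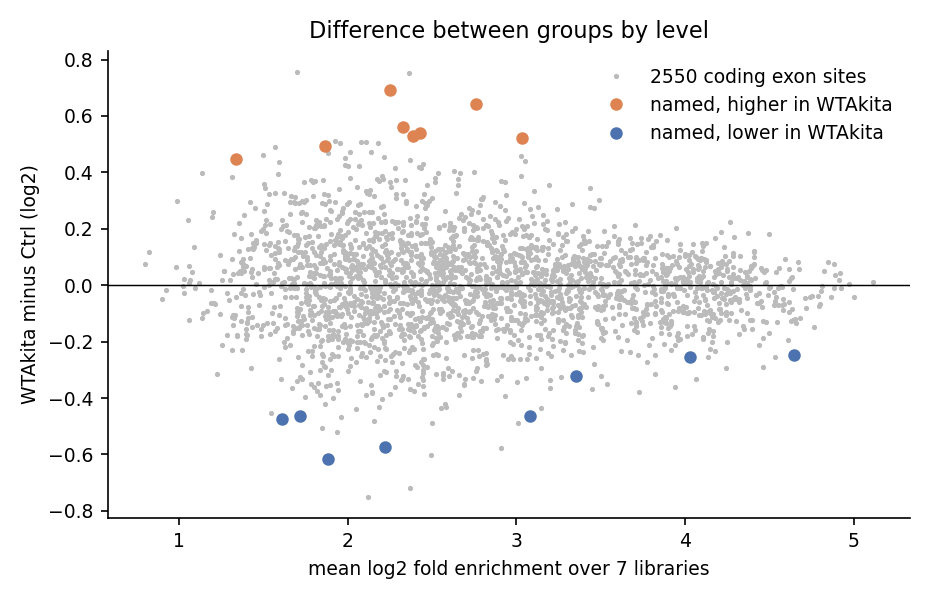
Difference between WTAkita and Ctrl in quantile-normalized log2 fold enrichment against the mean log2 fold enrichment of the 7 libraries, for 2550 coding exon sites (grey). The 8 named sites in each direction lie between 0.45 and 0.69 above 0 (orange) and between −0.62 and −0.25 below it (blue), and the spread around 0 narrows as the level rises.

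The sites named here have the largest statistic among those whose normalized groups did not overlap, and none passed the adjusted test (limma, adjusted p = 1.00 in each). At Soat1, which esterifies cholesterol, the values were 2.69, 4.45 and 4.23 in Ctrl and 4.44, 4.56, 8.01 and 6.75 in WTAkita. The difference was 0.69 ± 0.20 (SE) on the log2 scale, and the summit was coding in 2 libraries. At Ap3b2, a subunit of an adaptor complex of neurons, they were 3.93, 6.0 and 6.72 against 7.06, 7.41, 10.4 and 7.62, a difference of 0.64 ± 0.17. Ogdh, the first enzyme of the 2-oxoglutarate dehydrogenase complex in the citric acid cycle, had 3.72, 4.64 and 4.73 against 6.05, 6.08, 5.42 and 6.53, and 0.53 ± 0.16. The other sites higher in WTAkita were in Itgad, an integrin of leukocytes (0.56), the kinase genes Stk36 (0.54, with 1 Ctrl library above 1 WTAkita library before normalization) and Sik3 (0.52), the scavenger receptor gene Ssc5d (0.49) and Cxxc4 (0.45). In Itgad and Sik3 the summit was coding in 1 library, and in Stk36 in 4.

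In the other direction, Clec2l, a C-type lectin, had 4.55, 4.84 and 4.98 in Ctrl and 2.62, 3.23, 3.53 and 2.83 in WTAkita, a difference of −0.62 ± 0.15 (SE). The Il6ra site, in the second coding exon of the receptor chain that binds interleukin-6, had 3.99, 3.71 and 4.36 in Ctrl and 2.92, 2.85, 2.51 and 3.08 in WTAkita, and its summit was coding in all 7 libraries. Its difference was −0.46 ± 0.15. Every WTAkita library was below every Ctrl library at both of these sites also before normalization. The remaining sites were in F7, coagulation factor VII (−0.57), Sbno2 (−0.47), Otoa, a protein of the inner ear (−0.46), the cytochrome P450 gene Cyp4f15 (−0.32), Jmjd1c, a histone demethylase family gene (−0.26), and Pdia4, a disulfide isomerase of the endoplasmic reticulum (−0.25). Pdia4 was the tallest of them, at 26.4, 31.4 and 27.5 in Ctrl and 19.4, 22.1, 23.7 and 26.5 in WTAkita, and there the groups touch before normalization. The summit was coding in 2 libraries in Cyp4f15 and in 5 libraries in Clec2l, F7 and Sbno2.

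Few coding exon sites were called in a single group. There were 3 with a summit in all Ctrl and no WTAkita libraries (0.0646% of coding exon sites, with a background of 0.151% of all sites) and 7 with the reverse (0.151% against 0.11%). All were low, with a median fold enrichment of 2.59 and 2.995 against 6.31 for sites called in all 7 libraries. The Ctrl sites were in Fam217b (2.48, 3.87 and 3.98), Dact3, an inhibitor of Wnt signalling (2.62, 2.74 and 2.41), and Grin2c, a subunit of a glutamate receptor (2.84, 2.37 and 1.99). The leading WTAkita sites were in Krt82, a hair keratin (4.03, 3.23, 5.18 and 3.70), Plekha5 (2.84, 4.75, 3.93 and 2.88) and Flt4, a receptor for vascular endothelial growth factors (2.82, 2.47, 3.77 and 3.27). The Krt82 summit was coding in 1 library.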

How the data were processed

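ATAC-Seq peaks of 7 libraries of sorted LSK cells, 3 Ctrl and 4 WTAkita, were read as deposited. Per the labels and the study's methods, the authors used Trim Galore 0.4.2 and cutadapt 1.9.1 for trimming and Bowtie2 2.3.4.1 for alignment to mm10, and called peaks in each library with MACS2, without a control, at p of 0.01, with a shift of −75 and an extension of 150 bp and with every summit of a peak on its own line. The processing notes give MACS2 2.1.4, the methods another version. The authors' fold enrichment divides the summit's pileup by that library's local background, a ratio with no scaling from library to library. The deposited −log10 p-value was used for a stricter threshold and, together with the fold enrichment, to solve for each summit's pileup and background. Tags at a summit are therefore estimates. The deposited −log10 q-value and score were not used. Signal between peaks, and hence a site's level in a library where it was not called, was not analysed here.

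Summits within 150 bp were joined over libraries (GENCODE vM21 exons, mm10). A site's value was its highest fold enrichment in a library, and means over libraries are geometric. GC content and motifs were read within 100 bases of a summit. Sites called in all 7 libraries were compared on quantile-normalized log2 fold enrichment with limma 3.58.1 (R 4.3.3) with a trend, adjusted by Benjamini-Hochberg over 132276 sites. Measures per library were compared by exact permutation tests between groups and exact sign-flip tests between classes (Python 3.11.15, scipy 1.17.1), adjusted within each family of measures. Tags per library, 37600000 to 53100000, were estimated from the background pileup. Of these steps, only the site-by-site test and the exact tests were run on simulated data. The differences planted at sites there were larger than at any named site, so how small a difference could be found was not tested.

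Named sites are the 12 strongest, the 8 in each direction with the largest statistic among those whose groups do not overlap, the 3 leading sites of a single group, the 3 widest, those of the hematopoietic lists or of genes the study names, and the 5 genes with most sites. The members and lists were chosen with earlier results of these data known. Alternatives covered the peak threshold, the join distance, the distance from starts, the pileup scale and leaving out libraries.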

Additional observations from a re-analysis of the deposited data

Results flagged for a closer look

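In the 4 WTAkita libraries, 66 values were checked for a library far from the others by Dixon's ratio, the gap to the nearest library divided by the range, against its 95% critical value. Chance gives about 1 in 20 such values, and 2 were above it. At the Zfp316 site the ratio was 0.883, with a fold enrichment of 2.73 in WTAkita replicate 1 and 3.78, 3.91 and 3.92 in the other libraries. At the Ap3b2 site it was 0.833, with 10.4 in WTAkita replicate 3 and 7.06, 7.41 and 7.62 in the others. The 3 Ctrl libraries are too few for this check.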

How the results depend on the processing

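The adjusted site-by-site comparison called 0 sites under every alternative run. With peaks of −log10 p of at least 5, the difference in sites per library was −18.2, the share of sites called in all libraries 57.4%, the log2 fold enrichment against introns −0.04 (−0.0359; exact sign-flip test, p = 0.0156) and the coding exon density 98.2 summits per Mb. Joining summits within 75 bp gave a share of 49.99%. Joining within 300 bp gave 66.3%, a log2 difference from introns of −0.02 (−0.0205) at sites called in all libraries (exact sign-flip test, p = 0.0625) and, at sites called in all libraries with 50 to 60% GC, a width difference from introns of 31.9 bp in place of −13.4 bp. More than 1000 bp from starts, the log2 difference from introns was −0.07 (−0.0656; exact sign-flip test, p = 0.0156) and the density 125. More than 5000 bp from starts they were 0.05 (0.0455) and 103, and at 50 to 60% GC the log2 difference over all summits was 0.00145. With the 5′ ends of genes as the only starts these were −0.0445, 122 and −0.0412. With sites kept only where at least 50% of summits were coding, the share was 52.8%, the density 106 and the log2 difference over all summits at 50 to 60% GC −0.0177. At sites called in all libraries the log2 difference from introns was then −0.0721, and −0.0884 at 50 to 60% GC. The causes of these changes were not tested.

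Leaving out 1 library at a time gave shares of 56.3% to 58.2%, 25 to 38 sites called in a single group, which then needs fewer libraries, and log2 differences at 50 to 60% GC of −0.0655 to −0.0450. It gave 223 (8.66%) to 369 (14.4%) coding exon sites whose groups did not overlap, in place of 129 (5.06%), while the share over all sites was 8.32% and 13.2% in the same settings. Without Ctrl replicate 1 and WTAkita replicates 1 and 2 together, the log2 difference between the groups was 0.0076, and the groups did not overlap at 33.0% of coding exon sites, against 32.5% of all sites. With pileup scaled by tags, 30 coding exon sites (1.18%) had an unadjusted p under 0.05 in place of 125, against 1.06% of all sites, and at 68 (2.67%) the groups did not overlap, against 2.25% of all sites.

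Deviations of same-numbered libraries correlated by 0.219, 0.023 and 0.066. These were not set against libraries of different number, so whether the replicate numbers pair the libraries was not tested. The replicate block leaves out WTAkita replicate 4, which has no Ctrl library of its number. With it, the log2 difference in fold enrichment was −0.116 (exact sign-flip test, p = 0.25, the smallest possible) and 0 sites passed the adjusted test. In the libraries of the block, 248 coding exon sites (9.73%, against 9.20% of all sites) had groups that did not overlap, a count that does not use the pairing. Leaving out WTAkita replicate 4 without a block gave −0.116 and 247 sites (9.68%, against 9.21% of all sites). Sites called in 1 library had an estimated median of 14 tags at the summit. The effect of depth on which sites were called was not tested.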
